A study of Mus musculus with 12 samples.

Results

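The genes described here encode the subunits of the proteasome and the proteins that assemble or regulate it. They were taken by name from the deposited count table as the protein-coding genes whose symbols begin with Psma, Psmb, Psmc, Psmd, Psme, Psmf or Psmg followed by a digit. The inducible immunoproteasome genes Psmb8, Psmb9, Psmb10, Psme1 and Psme2 were left out of the set. This gave 45 of the 24934 genes in the table. The 20S core is represented by 15 of them (7 alpha and 8 beta subunits) and the 19S regulator by 17 (6 ATPases and 11 non-ATPase subunits). The remaining 13 are 3 assembly chaperones of the 19S base, 4 assembly chaperones of the 20S core, 3 activators or inhibitors, and 3 genes that share only the name pattern. Of the 45 genes, 44 had enough reads to be tested. The exception was Psmb11, a beta subunit known from thymic epithelium, which was at or below 0.0999 CPM in every library.

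The proteasome degrades proteins that carry ubiquitin chains. Its 20S core is a barrel in which rings of alpha subunits gate the entrance to inner rings of beta subunits, and Psmb5, Psmb6 and Psmb7 carry the catalytic sites. The 19S regulator caps the barrel: its ATPases unfold substrates and open the gate, while its other subunits recognise ubiquitin or remove it. In macrophages and microglia the proteasome also degrades the inhibitor of NF-kB and supplies peptides for antigen presentation.

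RNA was sequenced from BV2 cells, an established mouse microglial line, in 3 groups of 4 libraries. The Acacetin group received 10 µM acacetin, a plant flavone; its treatment label does not itself state deprivation, although the series text sets acacetin after oxygen and glucose deprivation with re-oxygenation. The OGD group went through that deprivation and re-oxygenation, a culture model of stroke, and the Control group is labelled only as control. No label says that the libraries came from separate cultures, so p-values measure only the spread between these samples, which may be technical. Differences in the amount of a transcript per cell cannot be told apart from differences in the make-up of the cultures in bulk RNA.

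Depth ran from 16427886 to 32693066 reads per library. No molecular identifiers are named, and precision from depth covers counting error alone. Of 15 microglia and macrophage markers, 14 were in the table and 12 averaged over 1 CPM (counts scaled to the TMM-adjusted library size), with P2ry12 and C1qa at or below 0.999 CPM in every library. Their summed level was 2968 to 4649 CPM in Acacetin, 3567 to 5160 CPM in OGD and 4046 to 4774 CPM in Control libraries, while the lists for neurons, astrocytes, oligodendrocytes, endothelium, fibroblasts and T cells each summed to at most 2.32 CPM. Libraries differed in 2 ways that touch the genes described here. The gene for 18S ribosomal RNA took 13.1% of the reads in OGD 2 and 21.3% in OGD 3, against at most 1.86% in the other 10 libraries. The libraries also differed in how log2 CPM, relative to each gene's mean over libraries, depended on log2 gene length: the slope was lowest in Acacetin 1 (-0.21) and highest in Acacetin 3 (0.29).

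Levels between genes are compared here only in FPKM, the deposited values per gene length. Catalytic subunit genes took the 2 highest places in the set. Psmb5, the chymotrypsin-like subunit, averaged 945 ± 149 FPKM in Acacetin, 827 ± 143 in OGD and 874 ± 124 in Control libraries (SD, n = 4 each), the highest level of the set in each group. Psmb6, the caspase-like subunit, came next in each group, with 518 ± 82.0 FPKM in Acacetin, 455 ± 87.9 in OGD and 611 ± 20.8 in Control libraries. Psmd8, a 19S lid subunit, was the highest 19S gene in each group, at 216 ± 27.2 FPKM in Acacetin, 183 ± 36.0 in OGD and 280 ± 13.1 in Control libraries.

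The subunits of 1 complex differed widely in their transcript level. The median over the 14 tested 20S genes was 197 FPKM in Acacetin, 172 in OGD and 175 in Control libraries, and that over the 17 genes of the 19S regulator 52.2 FPKM in Acacetin, 46.9 in OGD and 43.9 in Control libraries. In Control libraries the 20S genes ran from 24.1 FPKM (Psma1) to 874 FPKM (Psmb5) and the 19S genes from 2.77 FPKM (Psmd1) to 280.2 FPKM (Psmd8). Psmc6, an ATPase, stood far below the other ATPases, at 8.71 FPKM in Acacetin, 4.61 in OGD and 4.79 in Control libraries. The lowest tested proteasome activator was Psme4, which binds the core in the nucleus and acts without ATP, with 1.01 ± 1.04 FPKM in Acacetin, 0.40 ± 0.374 in OGD and 0.407 ± 0.142 in Control libraries.

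**Figure D1:**
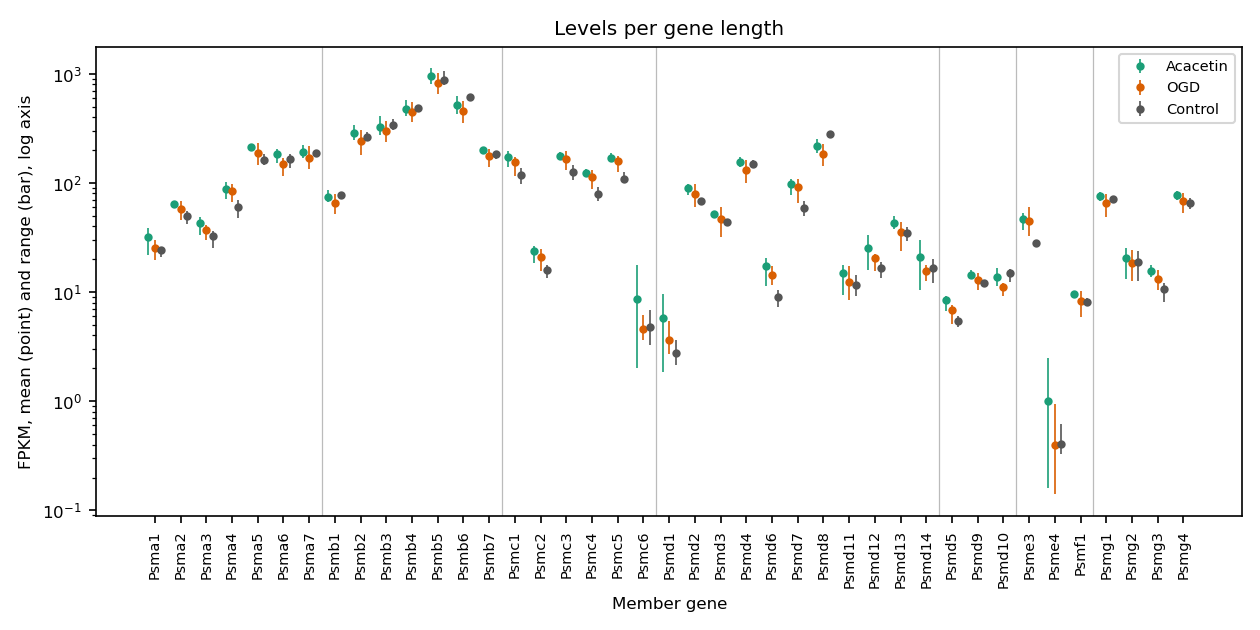
FPKM of the 41 tested genes other than the 3 that share only the name pattern, on a log axis; points are means of 4 libraries and bars run from the lowest to the highest library, for Acacetin, OGD and Control from left to right, with grey lines between classes. Psmb5 is the highest in each group, and Psme4 and Psmd1 are the lowest.

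OGD libraries were compared with Control libraries to ask what deprivation and re-oxygenation did to proteasome transcripts. A group of 19S regulator genes rose and most of the 20S core genes did not pass the test. No gene of the set fell in the main edgeR fit. At an adjusted p under 0.05 (edgeR's quasi-likelihood test with Benjamini-Hochberg adjustment over all 13249 tested genes), 11 of the 44 tested genes were called, all of them higher in OGD. That is 25.0%, near the 28.8% of all tested genes called in either direction. By direction, 16.2% of all tested genes were called higher and 12.6% lower. The set's calls thus lay more on the higher side than those of all genes, with 0 called lower in this fit. DESeq2 called 12 of the set higher and 1 (Psmd8) lower, and limma on log2(FPKM + 1) called 6 higher and 2 (Psmb6 and Psmd8) lower.

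The calls were uneven between the parts of the complex. In the 19S regulator 7 of 17 genes rose (41.2%): the ATPases Psmc1, Psmc2, Psmc4 and Psmc5, and the lid subunits Psmd6, Psmd7 and Psmd12. In the 20S core 1 of 14 rose (7.14%), the alpha subunit Psma4. The other 3 calls were Psmd5, a chaperone of 19S base assembly, Psme3, the nuclear activator cap of the core, and Psme3ip1, which encodes a protein that binds Psme3 and is not itself a subunit. The median log2 fold change (OGD over Control) was 0.47 over the 19S genes, 0.06 over the 20S genes and 0.22 over the 44 genes, beside 0.03 over all tested genes. Within the 19S regulator it was 0.55 over the 6 ATPases, of which 4 were called (66.7%). Over the 11 non-ATPase genes it was 0.23, below the 0.37 of the 20S alpha genes. Of those 11, 3 were called higher (27.3%), against 28.8% of all tested genes in either direction and 16.2% higher. The sign of the 20S median depended on the scaling and on single libraries. It was -0.02 without OGD 2, -0.03 without Control 4, -0.11 without OGD 2 and OGD 3, and 0.19 without OGD 4. On log2(FPKM + 1) it was -0.11, with 0.27 over the 19S genes and -0.04 over all genes. With log2(FPKM + 0.1) the median over all genes was -0.11, and 32 of the 44 genes lay above it.

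Psmd6, a lid subunit, had the largest called fold change. It measured 43.9, 64.0, 56.8 and 46.7 CPM in the OGD libraries, against 25.0, 29.2, 34.8 and 28.6 CPM in the Control libraries. Every OGD library lay above every Control library, and the log2 fold change was 0.85 ± 0.15 (SE, adjusted p = 0.00112). Psmd7, the lid subunit that pairs with the deubiquitinase Psmd14, measured 249, 326, 259.7 and 235 CPM in OGD, against 139.9, 156, 186 and 138 CPM in Control. These groups did not overlap either, with a log2 fold change of 0.79 ± 0.15 (adjusted p = 0.00140). Psmd14 itself, which removes ubiquitin chains from substrates, averaged 57.2 ± 9.73 CPM in OGD and 54.5 ± 8.63 CPM in Control libraries and did not pass the test (log2 fold change 0.07, adjusted p = 0.833).

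Psme3 had the smallest p of the set. Its level was 155, 177, 169 and 169 CPM in OGD, against 96.1, 95.5, 103 and 93.3 CPM in Control libraries, with no overlap and little spread within either group. The log2 fold change was 0.79 ± 0.12 (adjusted p = 0.000407). The other activators or inhibitors did not pass: Psme4 averaged 3.83 ± 2.60 CPM in OGD and 3.96 ± 1.12 CPM in Control, and Psmf1, an inhibitor of the core in vitro, 68.6 ± 7.27 CPM in OGD and 61.4 ± 6.20 CPM in Control.

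Among the ATPases, Psmc5 measured 281, 332, 309.6 and 237 CPM in OGD, against 184, 172, 208 and 156 CPM in Control (log2 fold change 0.69 ± 0.17, adjusted p = 0.00848). Psmc4 averaged 320 ± 56.3 CPM in OGD and 202 ± 36.0 CPM in Control (adjusted p = 0.0207), Psmc1 390.1 ± 69.6 and 271 ± 34.2 CPM in those groups (adjusted p = 0.0195), and Psmc2 138 ± 29.2 and 94.0 ± 9.20 CPM (adjusted p = 0.0125). In each of these 4 genes the OGD libraries lay above all Control libraries. Psmc3 averaged 569 ± 101 CPM in OGD and 388 ± 68.4 CPM in Control, with overlap and an adjusted p of 0.0580. Psmc6 averaged 20.6 ± 1.37 CPM in OGD and 19.4 ± 5.37 CPM in Control and was the ATPase with the smallest difference.

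Psmd12, a lid scaffold subunit, averaged 71.5 ± 14.6 CPM in OGD and 51.7 ± 5.39 CPM in Control, with overlap between the groups (adjusted p = 0.0436). Its call held under only 5 of the 20 alternatives run, with adjusted p up to 0.387. Psmd2, a base scaffold that docks ubiquitin shuttles, averaged 414 ± 25.0 CPM in OGD and 325 ± 12.7 CPM in Control without overlap, but narrowly missed the threshold (adjusted p = 0.050, just above it). Psmd4, a ubiquitin receptor, averaged 482 ± 78.8 CPM in OGD and 491 ± 43.6 CPM in Control, with a log2 fold change of -0.03.

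Psmd8, also a lid subunit, had values on the other side and was chosen after they were seen. It measured 799, 825, 763 and 536 CPM in OGD, against 1023, 1035, 985 and 983 CPM in Control. The OGD libraries all lay below the Control libraries, but the log2 fold change of -0.46 ± 0.20 did not pass the test (adjusted p = 0.106). Once the trend with gene length was removed, the value was -0.53 with an adjusted p of 0.0144. Other edgeR fits also called Psmd8 lower. They used only the 8 libraries compared, left out Acacetin 1 and Acacetin 3, or left out the ribosomal genes with Lars2.

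In the 20S core, alpha and beta genes gave different values. The 7 alpha genes had a median log2 fold change of 0.37, with all 7 above 0, and the 7 tested beta genes had a median of 0.02, with 4 above 0. Psma4 measured 238, 354, 280.5 and 188 CPM in OGD, against 139.6, 177, 197 and 156 CPM in Control, so that OGD 4 fell within the Control range (log2 fold change 0.66 ± 0.18, adjusted p = 0.0135). Of the beta genes 0 were called by edgeR, 0 had an unadjusted p under 0.05, and 0 were called by DESeq2.

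The catalytic subunits did not pass the test. Psmb5 averaged 975 ± 181 CPM in OGD and 929 ± 173 CPM in Control (log2 fold change 0.07). Psmb6 averaged 1112 ± 200.5 CPM in OGD and 1346 ± 96.3 CPM in Control (-0.28, adjusted p = 0.384). Psmb7, the trypsin-like subunit, averaged 791 ± 174 CPM in OGD and 740.3 ± 49.9 CPM in Control (0.10). For Psmb6 limma on the deposited FPKM gave a call, lower in OGD, with a smallest adjusted p of 0.0462 over the alternatives tried. The chaperone genes of core assembly, Psmg1 to Psmg4, gave 0 calls by edgeR, 0 at an unadjusted p under 0.05 and 0 by DESeq2; Psmg1 averaged 114 ± 24.2 CPM in OGD and 113 ± 9.14 CPM in Control.

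**Figure D2:**
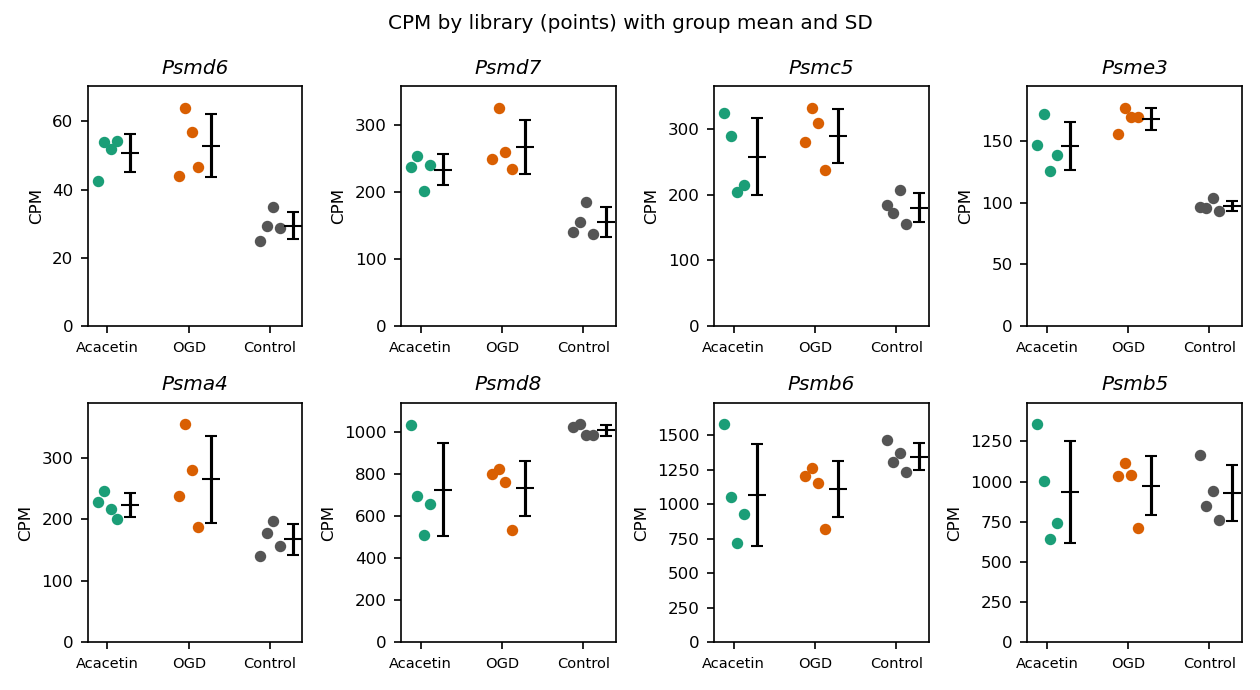
CPM in each library (points) with the group mean and SD (bars) for 8 genes, with Acacetin, OGD and Control from left to right and each axis starting at 0. Psmd6, Psmd7, Psmc5 and Psme3 are higher in all OGD than in all Control libraries, Psmd8 is lower in all OGD than in all Control libraries, and Psmb5 overlaps throughout.

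Groups that did not overlap were counted without a test. Among the 44 genes 11 had no overlap between OGD and Control libraries, 10 higher and 1 (Psmd8) lower, or 25.0% against 36.0% of all tested genes. In the 19S regulator 8 of 17 had none, and in the 20S core 0 of 14.

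The calls rested in part on single libraries. Without OGD 2 there were 5 (Psmc2, Psmc5, Psmd6, Psmd7 and Psme3) and without Control 1 or Control 2 there were 7 each; without OGD 4 there were 4 calls in the 20S core. Without both OGD 2 and OGD 3, which carry the high ribosomal share, 4 were called, with Psmd6, Psmd7 and Psme3 higher and Psmd10, a chaperone of 19S assembly known as gankyrin, lower. These 3 higher genes were called under each of the 20 alternatives run. Of the other calls Psmc5 held under 19, Psma4 under 18, Psmc2 and Psmc4 under 17, Psme3ip1 under 15, Psmc1 under 14 and Psmd5 under 13.

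The promoters of some of these genes are shown because genes of the 19S regulator, which rose most often, mostly held a short motif described after them. Promoters were taken from RefSeq on build GRCm38.p6, from 250 bases before to 50 bases after the start, on the gene's strand and 5′ to 3′. The count files use GRCm39, so these positions are not those of the files. A promoter was taken for 38 of the 45 genes; Psmd7, Psmd3, Psmc3, Psmb1, Psmb2 and Psmb7 had no entry, and Psmg2 was not used here. The motifs searched on both strands were TGACNNNGC, the core of the antioxidant response element that the proteasome regulators Nfe2l1 and Nfe2l2 can bind, CGGAAG, a core bound by ETS factors, and CCAAT, the CCAAT box. They were chosen after counts of several motifs had been seen. Psmd6 lies at chr14:14120896-14121195 (- strand), Psmc4 at chr7:28050043-28050342 (- strand), Psmd12 at chr11:107479278-107479577 (+ strand) and Psme3 at chr11:101315963-101316262 (+ strand); all 4 were called higher in OGD. Psmb5 lies at chr14:54617946-54618245 (- strand) and Psmb6 at chr11:70525107-70525406 (+ strand); both are catalytic subunits that were not called. The genes shown do not stand for the whole set. Among those not shown, Psma6, Psmd13 and Psmg1 hold CGGAAG and were not called. Psmc5 and Psmd5 lack it and were called higher in OGD. Capitals mark a match to TGACNNNGC or CGGAAG on either strand (CTTCCG is the reverse complement of CGGAAG).
Psmd6: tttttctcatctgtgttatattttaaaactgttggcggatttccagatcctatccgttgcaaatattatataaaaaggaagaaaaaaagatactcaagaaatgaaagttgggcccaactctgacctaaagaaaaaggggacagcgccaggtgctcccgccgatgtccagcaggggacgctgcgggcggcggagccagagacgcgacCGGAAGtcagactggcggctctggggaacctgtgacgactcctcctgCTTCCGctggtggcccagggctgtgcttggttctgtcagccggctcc
Psmc4: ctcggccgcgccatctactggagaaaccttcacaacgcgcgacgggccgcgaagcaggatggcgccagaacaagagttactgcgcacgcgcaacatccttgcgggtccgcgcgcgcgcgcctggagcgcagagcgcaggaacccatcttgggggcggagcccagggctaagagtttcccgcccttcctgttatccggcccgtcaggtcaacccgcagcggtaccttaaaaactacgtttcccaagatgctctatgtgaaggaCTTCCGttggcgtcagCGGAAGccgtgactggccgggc
Psmd12: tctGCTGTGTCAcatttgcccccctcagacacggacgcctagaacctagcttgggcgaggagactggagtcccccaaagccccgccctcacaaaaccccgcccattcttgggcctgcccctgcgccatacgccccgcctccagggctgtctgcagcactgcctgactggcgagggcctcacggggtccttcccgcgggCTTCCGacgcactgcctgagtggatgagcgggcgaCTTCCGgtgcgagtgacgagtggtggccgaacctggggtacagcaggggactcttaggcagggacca
Psme3: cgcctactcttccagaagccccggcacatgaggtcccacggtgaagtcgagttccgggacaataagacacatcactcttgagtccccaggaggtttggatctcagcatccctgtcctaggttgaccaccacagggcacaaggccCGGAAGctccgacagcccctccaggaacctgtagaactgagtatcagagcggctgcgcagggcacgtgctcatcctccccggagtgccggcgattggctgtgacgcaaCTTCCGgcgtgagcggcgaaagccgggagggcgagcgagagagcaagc
Psmb5: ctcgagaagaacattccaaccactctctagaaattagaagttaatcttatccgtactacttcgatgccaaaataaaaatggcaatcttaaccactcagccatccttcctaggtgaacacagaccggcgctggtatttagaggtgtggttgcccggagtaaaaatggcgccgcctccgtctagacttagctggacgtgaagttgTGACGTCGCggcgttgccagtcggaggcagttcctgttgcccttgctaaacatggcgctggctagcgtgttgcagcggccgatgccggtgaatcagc
Psmb6: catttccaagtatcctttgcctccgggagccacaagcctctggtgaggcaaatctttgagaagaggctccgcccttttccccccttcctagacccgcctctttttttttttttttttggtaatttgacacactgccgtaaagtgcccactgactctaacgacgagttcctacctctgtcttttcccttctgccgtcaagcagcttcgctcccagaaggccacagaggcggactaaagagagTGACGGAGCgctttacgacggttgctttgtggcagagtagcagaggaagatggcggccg

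The ETS core was in the promoters of 24 of the 38 genes (63.2%), against 16.9% of the 32851 promoters in the table. The shares are not counted alike. A gene was counted when any of its promoters matched, with 41 promoters for the 38 genes. The share of the table is per promoter and is not limited to genes tested here. It was in 13 of 14 genes of the 19S regulator (92.9%) and 5 of 12 genes of the 20S core (41.7%). The exception in the regulator was Psmc5, which rose in OGD, so a gene without the motif was among those called. Within the regulator it was in 5 of the 6 genes called in OGD against Control and in all 8 of those not called, Psmd8 among them. Over the whole set it was in 8 of 10 called genes (80.0%) and in 15 of 27 tested genes not called (55.6%), a split that runs the other way and mixes the complexes. The core of the antioxidant response element was in 6 genes (15.8%), Psmb5, Psmb6, Psmc6, Psmd9, Psmd12 and Psme4, against 12.4% of all promoters, and of these Psmd12 was called higher in OGD. The CCAAT box was in 39.5% of the genes and 37.4% of all promoters. A match is a description of the letters, and binding was not measured.

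Acacetin libraries were compared with OGD libraries to ask what the flavone added after deprivation. No gene of the set was called, and none had groups that did not overlap. By edgeR 0 of 44 were called, with adjusted p from 0.83 to 0.996, beside 0% of all tested genes; 0 of 44 had an unadjusted p under 0.05, against 5.17% of all tested genes. DESeq2 and limma on FPKM also called 0 of the set, where DESeq2 called 37 of all genes and limma 0. Groups did not overlap for 0 of the 44, against 2.35% of all tested genes.

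The direction of the set in this comparison depended on the scaling. The median log2 fold change (Acacetin over OGD) was -0.07 over the 44 genes, -0.08 over the 20S and -0.06 over the 19S genes, beside -0.02 over all tested genes, and 37 of 44 were below 0. The deposited FPKM divide by all reads, ribosomal ones included. On log2(FPKM + 1) the median over all genes was 0.16, 44 of 44 genes of the set were above 0, and 32 lay above that median. With log2(FPKM + 0.1) the median over all genes was 0.24 and 16 of the set lay above it. Without OGD 2 and OGD 3, 40 of 44 were above 0.

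The largest differences belonged to genes with a wide spread among the Acacetin libraries. Psme4 measured 1.76, 4.74, 18.9 and 7.17 CPM in Acacetin, against 3.06, 1.80, 2.81 and 7.63 CPM in OGD (log2 fold change 1.08 ± 0.58, adjusted p = 0.83). Psmc6 measured 9.55, 25.8, 55.5 and 28.8 CPM in Acacetin, against 19.7, 19.4, 22.4 and 20.8 CPM in OGD (0.54 ± 0.36, adjusted p = 0.832). In both genes Acacetin 1 was the lowest and Acacetin 3 the highest of the 12 libraries. Those 2 libraries also have the lowest and the highest slope on gene length.

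The genes with the smallest p in OGD against Control kept values near or below their OGD range in Acacetin. Psmd6 measured 42.5, 53.9, 51.9 and 54.4 CPM in Acacetin, against 43.9, 64.0, 56.8 and 46.7 CPM in OGD, with a log2 fold change of -0.06 ± 0.15. Psmd7 measured 238, 255, 201 and 241 CPM in Acacetin, within or below the OGD range of 235 to 326 CPM (-0.20 ± 0.15). Psme3 measured 146, 172, 126 and 139 CPM in Acacetin, against 155 to 177 CPM in OGD, with 3 of 4 Acacetin libraries below every OGD library (-0.20 ± 0.12, adjusted p = 0.83). The catalytic Psmb5, Psmb6 and Psmb7 had log2 fold changes of -0.06 ± 0.23, -0.06 ± 0.22 and -0.08 ± 0.19. Misses of the threshold do not show that the groups act alike.

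**Figure D3:**
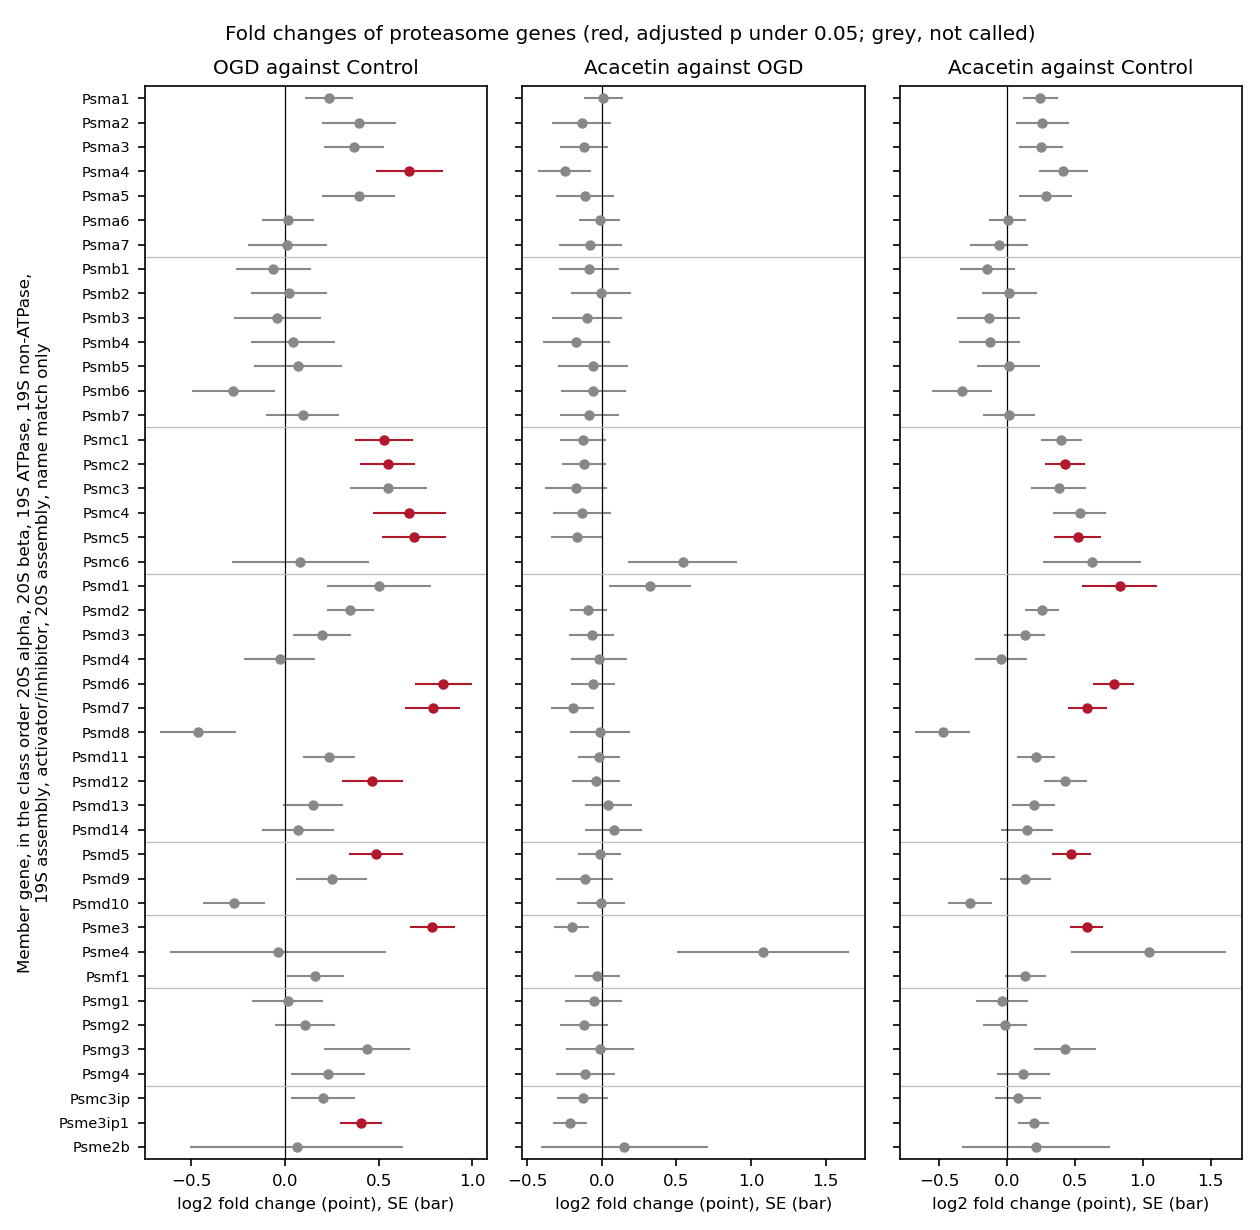
Log2 fold changes (points) with their SE (bars) of the 44 tested genes in the 3 comparisons, ordered by class from 20S alpha at the top; red marks an adjusted p under 0.05. The 11 red genes of OGD against Control and the 7 of Acacetin against Control are all above 0, and Acacetin against OGD has none.

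Acacetin libraries were also compared with Control libraries; this comparison shares the Control libraries with OGD against Control, so its calls are not independent of those above. At an adjusted p under 0.05, 7 of the 44 genes rose and 0 fell in the main edgeR fit (15.9%). Of all tested genes 26.9% were called in either direction, 14.0% higher and 12.9% lower. By DESeq2 11 rose and 1 (Psmd8) fell. The 19S regulator held 5 of the calls among its 17 genes (29.4%), Psmc2, Psmc5, Psmd1, Psmd6 and Psmd7, and the others were Psmd5 and Psme3. In the 20S core 0 of 14 were called by edgeR and 0 by DESeq2, and 1 (Psma4) had an unadjusted p under 0.05. The median log2 fold change (Acacetin over Control) was 0.40 over the 19S genes, 0.01 over the 20S genes and 0.21 over the 44, beside 0.08 over all tested genes. Within the 19S regulator it was 0.47 over the ATPases and 0.21 over the non-ATPase genes. Within the 20S core it was 0.25 over the alpha genes and -0.13 over the beta genes. Groups did not overlap for 7 of the 44, all higher, against 25.7% of all tested genes.

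Psmd6 averaged 50.7 ± 5.58 CPM in Acacetin and 29.4 ± 4.04 CPM in Control (log2 fold change 0.79 ± 0.15, adjusted p = 0.00220). Psme3 averaged 146 ± 19.5 CPM in Acacetin and 97.1 ± 4.34 CPM in Control (0.59 ± 0.12, adjusted p = 0.00315), and Psmd7 234 ± 22.9 CPM in Acacetin and 155 ± 22.2 CPM in Control (0.59 ± 0.15, adjusted p = 0.00923). In these 3 genes all Acacetin libraries lay above all Control libraries. Psmd5 measured 65.3, 73.2, 57.2 and 62.2 CPM in Acacetin, against 43.1, 43.9, 52.2 and 46.6 CPM in Control (0.47 ± 0.14, adjusted p = 0.0269), again without overlap. For comparison its 53.1 to 82.9 CPM in OGD gave 0.49 ± 0.14 against Control (adjusted p = 0.0217).

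Psmd1, the other base scaffold subunit, was called with overlapping groups. It measured 18.1, 38.0, 63.0 and 47.4 CPM in Acacetin, against 19.2, 21.3, 25.2 and 28.2 CPM in Control (0.83 ± 0.28, adjusted p = 0.0394), with Acacetin 1 below every Control library. Psmd1 was called under 9 of the 20 alternatives, among them edgeR with the length trend removed (adjusted p = 0.0320). Its implied length of 8.39 kb was the longest of the 19S genes, and a part of length in its call was not tested. Psmd6, Psmd7 and Psme3 were called under all 20, Psmd5 under 16, and Psmc2 and Psmc5 under 15 each. Without Acacetin 2, Control 1 or Control 2 the count of calls in the set was 3, namely these 3 genes, and without Acacetin 1 it was 11 (9 higher, 2 lower).

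**Figure D4:**
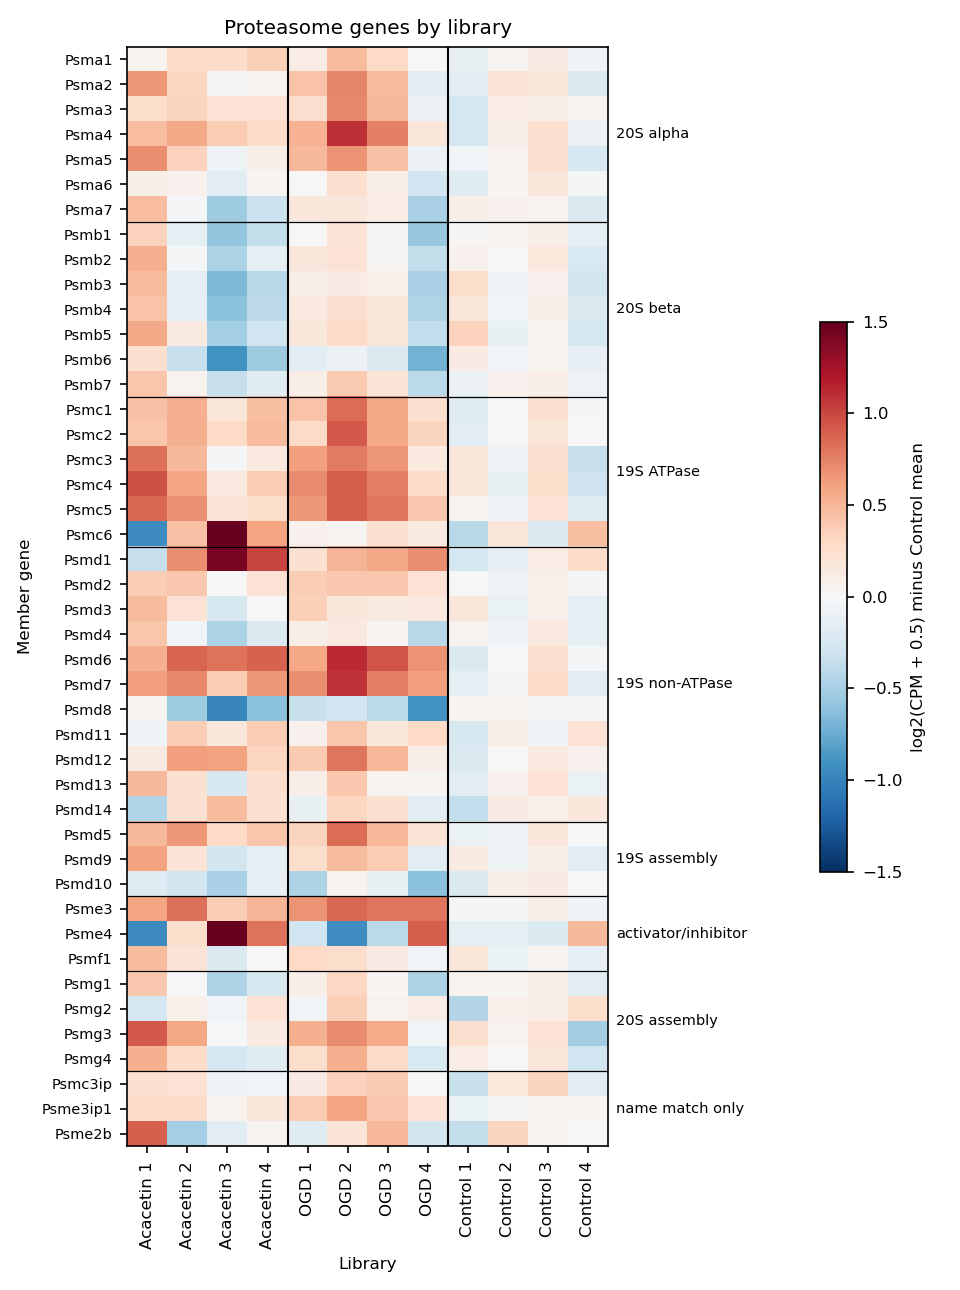
Log2(CPM + 0.5) of the 44 tested genes (rows, by class) in the 12 libraries, minus the mean of the 4 Control libraries; Acacetin, OGD and Control run from left to right and the colour scale stops at 1.5 either way. Psmd6, Psmd7 and Psme3 are red in all Acacetin and OGD libraries, while the 7 beta genes are blue in Acacetin 3 and OGD 4 and red in Acacetin 1.

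The balance between core and regulator was described by the mean log2 CPM of the 14 tested 20S genes minus that of the 17 tested 19S genes in each library, with no test. It was 1.74, 1.28, 1.06 and 1.17 in Acacetin (1.31 ± 0.30), 1.48, 1.44, 1.42 and 1.13 in OGD (1.37 ± 0.16) and 1.71, 1.64, 1.60 and 1.48 in Control (1.61 ± 0.10; SD, n = 4 each). OGD minus Control was -0.24, Acacetin minus OGD -0.06 and Acacetin minus Control -0.30. With 1 library left out, Acacetin minus OGD ran from -0.20 (without Acacetin 1) to 0.03 (without Acacetin 3), with -0.13 without OGD 4, so its sign rested on single libraries. OGD minus Control then ran from -0.28 to -0.16 and Acacetin minus Control from -0.44 to -0.21. OGD and Control overlap slightly, since OGD 1 (1.480) lies just above Control 4 (1.479), and Acacetin 1 lies above every other library. The mean of the 19S genes was 7.35 ± 0.07 in Acacetin, 7.39 ± 0.17 in OGD and 7.03 ± 0.10 in Control, and that of the 20S genes was 8.66 ± 0.30 in Acacetin, 8.76 ± 0.30 in OGD and 8.64 ± 0.11 in Control. The 19S means of OGD and Acacetin libraries all lay above those of the Control libraries, from 7.19 in OGD and 7.28 in Acacetin upwards against at most 7.16 in Control, while the 20S means overlapped.

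Sums per length gave another order of levels but a like ratio. The FPKM of the 20S genes added up to 3645 ± 395 in Acacetin, 3225 ± 567 in OGD and 3512 ± 189 in Control libraries, and those of the 19S genes to 1416 ± 48.1 in Acacetin, 1253 ± 214 in OGD and 1145 ± 65.8 in Control. The 19S sum of OGD 3, at 955 FPKM, lay below every Control library. The deposited FPKM divide by all reads, of which the 18S gene took 21.3% in OGD 3. In CPM on the TMM-adjusted library size, the 19S sum of OGD 3 was 4507. That lay above every Control library (3510 to 4078 CPM). The ratio of 20S to 19S sums, in which the depth of a library cancels, was 3.01, 2.54, 2.36 and 2.39 in Acacetin, 2.73, 2.60, 2.65 and 2.34 in OGD and 3.39, 3.05, 2.95 and 2.91 in Control libraries. Every OGD library lay below every Control library, and Acacetin 1 was the only Acacetin library within the Control range. Across the 12 libraries the median pairwise r of log2 CPM was 0.73 over 91 pairs of 20S genes, 0.48 over 136 pairs of 19S genes and 0.44 over 238 mixed pairs; these are descriptions over shared libraries.

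The balance moved with the gene length slope of the library. Over the 12 libraries Pearson's r was -0.87 and Spearman's rho -0.74, and with the group means removed r was -0.94; without Acacetin 3 and OGD 4, the libraries farthest from the median slope, r was -0.75. These values are a description, since all genes of a library share its RNA, depth and preparation, and 4 libraries a group are too few for a value within each group. The 20S genes had a median implied length of 2.70 kb and the 19S genes of 3.26 kb. With the length trend removed the balance was 1.64, 1.31, 1.17 and 1.24 in Acacetin, 1.46, 1.39, 1.40 and 1.24 in OGD and 1.67, 1.60, 1.53 and 1.50 in Control, so that all OGD libraries then lay below all Control libraries. OGD minus Control was then -0.20 and Acacetin minus Control -0.23. Within groups the adjusted values followed the slope only in part. Acacetin 1, with the lowest slope, stayed the highest Acacetin library, and Acacetin 3, with the highest slope, the lowest. OGD 4 and Control 4, each with the highest slope of its group, stayed the lowest of their groups. OGD 2, with the lowest OGD slope, was below OGD 1 (1.39 against 1.46). Control 3, with the lowest Control slope, was below Control 1 and Control 2 (1.53 against 1.67 and 1.60). The part of the slope in the remaining difference was not tested.

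Single genes followed the slope to different degrees over the 12 libraries. The 7 beta genes had r from -0.98 to -0.89 with it, and Psmd4 (-0.96), Psma7 (-0.96) and Psmd8 (-0.83) were alike. Psme4 (0.98), Psmc6 (0.84) and Psmd1 (0.81) ran the opposite way. Long genes ran both ways, since Psmd9, with an implied length of 8.37 kb, had r of -0.84. Psme3 (0.02), Psmd7 (-0.10) and Psmd6 (0.19), the genes called under every alternative, did not track it closely. Nor did Psmc2 (-0.10), Psmd5 (-0.16) and Psmd12 (0.15), whose calls in OGD against Control held under fewer alternatives. Psma1 (0.09), which was not called, was alike.

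**Figure D5:**
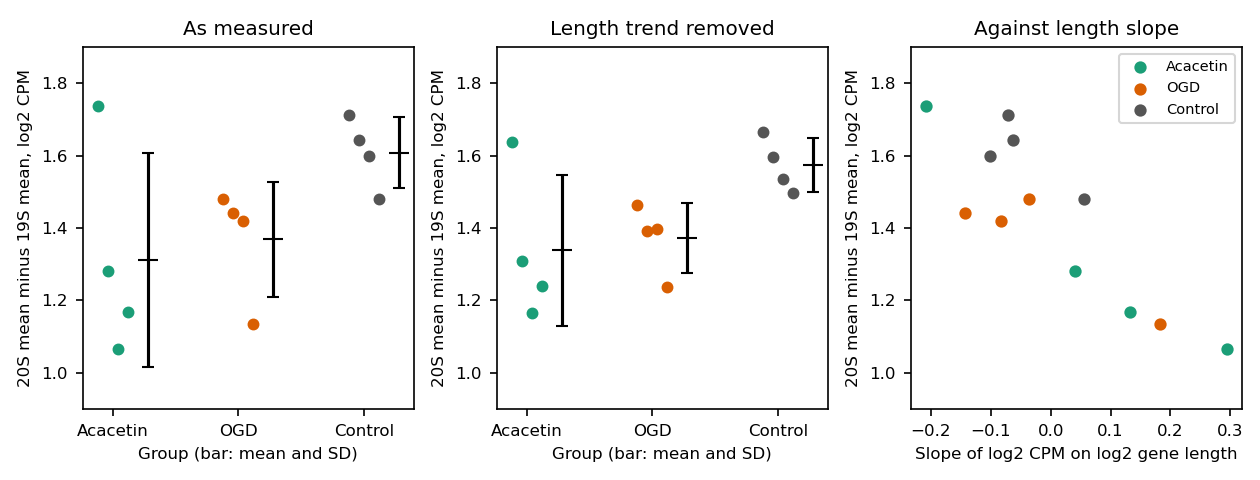
Mean log2 CPM of the 20S genes minus that of the 19S genes by library, as measured (left) and with the length trend removed (middle), as points with the group mean and SD for Acacetin, OGD and Control from left to right; the right panel sets the measured value against the library's slope of log2 CPM on log2 gene length. The OGD libraries lie at 1.13 to 1.48 and the Control libraries at 1.48 to 1.71, with OGD 1 just above Control 4. The value is lower where the slope is higher.

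Other genes of the pathway were read from lists kept apart from the set. Of the 3 further proteasome genes Adrm1, a ubiquitin receptor of the regulator, Sem1, a small lid subunit, and Pomp, the maturation factor of the core, 0 were called by edgeR or by DESeq2 in the 3 comparisons. In OGD against Control 2 had an unadjusted p under 0.05, and limma on log2(FPKM + 1) called 1. Pomp averaged 289 ± 63.9 CPM in OGD and 212 ± 33.6 CPM in Control (adjusted p = 0.115). Of the 5 immunoproteasome genes, edgeR called 1 in OGD against Control (20%, against 28.8% of all tested genes), and limma on log2(FPKM + 1) called 3. Their median log2 fold change was -0.11, with 4 of 5 below 0. Psmb9 (-0.32) and Psme1 (-0.30) were lower in all OGD than in all Control libraries, but not called by edgeR. The called gene was Psmb10, the inducible counterpart of Psmb7. It rose in OGD to 236, 298, 273 and 189.9 CPM, against 176, 134, 180.2 and 118 CPM in Control (0.71 ± 0.23, adjusted p = 0.0289, called under 15 of 20 alternatives). In Acacetin against Control edgeR called 2 of the 5 (40%, against 26.9%), both lower. Against Control, Acacetin libraries were lower for Psmb9, the inducible counterpart of Psmb6, at 50.3, 29.1, 22.9 and 30.6 CPM in Acacetin and 62.0, 58.3, 68.0 and 54.5 CPM in Control (-0.87 ± 0.21, adjusted p = 0.00811). Psme1, a subunit of the interferon-inducible activator cap, was also lower, at 404, 241, 194 and 261 CPM in Acacetin and 414, 411, 439 and 367 CPM in Control, with Acacetin 1 inside the Control range (-0.57 ± 0.19, adjusted p = 0.0435; called under 12 of 20 alternatives).

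Among 8 tested regulators of proteasome abundance, 1 rose and 1 fell in OGD against Control, or 25%, near the 28.8% of all tested genes. In Acacetin against Control 1 of the 8 was called (12.5%, against 26.9% of all tested genes). Akirin2, which carries proteasomes into the nucleus, averaged 24.2 CPM in OGD and 18.4 CPM in Control (0.39 ± 0.12, adjusted p = 0.0278); its call held under 11 of 20 alternatives, with adjusted p up to 0.472. Zfand5, an activator of the proteasome in wasting muscle, measured 17.7, 18.2, 19.6 and 20.3 CPM in OGD, against 28.6, 35.1, 24.4 and 44.3 CPM in Control (-0.81 ± 0.18, adjusted p = 0.00404), and it was also lower in Acacetin than in Control (-0.80 ± 0.18, adjusted p = 0.00498). Nfe2l1, the transcription factor that restores proteasome genes after inhibition, averaged 53.1 CPM in OGD and 55.4 CPM in Control and was not called. Of 6 ubiquitin and activating enzyme genes, 0 were called by edgeR in OGD against Control, where 0 had an unadjusted p under 0.05, 0 were called by DESeq2 and 1 by limma on log2(FPKM + 1). In Acacetin against Control 0 were called by edgeR, 1 by DESeq2 and 0 by limma, and 1 had an unadjusted p under 0.05.

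Of 10 shuttle and deubiquitinase genes, 4 were called by edgeR in OGD against Control (40%, against 28.8% of all tested genes) and 4 in Acacetin against Control (40%, against 26.9%), 3 of them higher in each comparison. DESeq2 called 4 in OGD against Control and 5 in Acacetin against Control, and limma on log2(FPKM + 1) called 1 in OGD against Control and 0 in Acacetin against Control. Nploc4, a cofactor of the segregase Vcp, averaged 52.5 CPM in OGD and 33.2 CPM in Control (0.66 ± 0.13, adjusted p = 0.00185). Rad23b, a shuttle that carries ubiquitinated proteins to the regulator, averaged 61.2 CPM in OGD and 43.8 CPM in Control (0.48 ± 0.16, adjusted p = 0.0368), a call that held under 7 of 20 alternatives, with adjusted p up to 0.485. Ubqln4, another shuttle, rose in OGD (0.47 ± 0.13, adjusted p = 0.0156). In Acacetin against Control, Nploc4 (0.63), Rad23b (0.46) and Vcp (0.59) rose; the calls of Rad23b and Vcp each held under 9 of 20 alternatives, and that of Nploc4 under 19.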

How the data were processed

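Counts and FPKM were measured by stranded mRNA sequencing of 12 BV2 libraries, per the labels' protocols. Per the submitters' processing notes, the tools and build were HISAT2, bcl2fastq, DESeq2 and GRCm39, listed without roles. How reads were assigned to genes, and whether by strand, is not given in the sources used here; genes that overlap or share near-identical copies, such as Psme2b, are therefore uncertain. The authors deposited raw read counts per gene and, in a second table, FPKM (fragments scaled by gene length and depth), and all 12 columns of both matched a library by name. The members, lists and tests were chosen with earlier results of these data known.

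In edgeR 4.0.16 (R 4.3.3), 13249 genes passed filterByExpr (at least 10 reads by its group rule and 15 in total), and all 12 libraries entered 1 quasi-likelihood fit with TMM scaling. Tests were two-sided, with Benjamini-Hochberg adjustment within each comparison and calls at an adjusted p under 0.05. SE is the log2 fold change over the square root of F, and mean log2 CPM used a prior count of 2. Gene length was implied by the ratio of counts to FPKM. Named genes are the called members (up to 12 by p, or the 4 smallest p), Psmb5, Psmb6, Psmb7, Psmd4, Psmd14, Psmd5, Psme4 and Psmg1, and up to 4 called genes of each pathway list; others named were chosen after their values were seen. Of the called pathway genes, 1 is not reported here. Alternatives were DESeq2 1.42.0, its size factors, no filter, a mean of at least 1 CPM, a fit of the 8 libraries of a comparison alone, a replicate block, limma 3.58.1 on log2 FPKM plus 1 or 0.1, the length trend removed (lowess span 0.5), the ribosomal genes with Lars2 left out, 2 pairs of libraries left out, and each library left out. The scripts were tested on simulated counts. No 2 libraries of a group agreed within sampling noise.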

Additional observations from a re-analysis of the deposited data

Results flagged for a closer look

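In 7 of 141 sets of 4 libraries of a group, 1 library stood apart from the other 3 by Dixon's test at the 95% level; chance alone gives about 1 in 20. Psma7 had 483 CPM in OGD 4, against 732 to 760.4 CPM in the other OGD libraries, and 583 CPM in Control 4, against 702 to 719 CPM in the other Control libraries. Psmb3 had 647 CPM in OGD 4, against 956 to 991 CPM in the others, and Psmb4 had 814 CPM there, against 1232 to 1311 CPM. OGD 4 and Control 4 have the highest gene length slope of their groups (0.18 and 0.06). Psmd3 had 328 CPM in OGD 1, against 281 to 287 CPM in the others, and Psmd13 had 182 CPM in OGD 2, against 141 to 146 CPM. Psme4 had 5.64 CPM in Control 4, against 3.29 to 3.48 CPM in the other Control libraries.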

How the results depend on the processing

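Counts of calls are given where they moved by more than 1.5 times; the causes were not tested. In OGD against Control (11 in the set, 1 in the 20S core, 7 in the 19S regulator), without OGD 2 and OGD 3 they were 4, 0 and 2. The 20S count was 2 with limma on log2(FPKM + 1) or log2(FPKM + 0.1) and with the length trend removed. The 19S count was 11 with only the 8 libraries compared or without Acacetin 1 and Acacetin 3. Both counts of 11 include Psmd8, which was lower in OGD. The 20S counts under limma include Psmb6, also lower in OGD. Leaving out 1 library gave 5 to 16, 0 to 4 and 4 to 9.

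In Acacetin against Control (7, 0 and 5), the set count was 12 with DESeq2, 13 with the length trend removed and 11 with limma at either pseudocount, without OGD 2 and OGD 3, or without ribosomal genes and Lars2. The 19S count was 10 with DESeq2, 9 with the length trend removed or without ribosomal genes and Lars2, 8 without OGD 2 and OGD 3, and 3 with only the 8 libraries compared. The counts with DESeq2 and with the length trend removed include Psmd8, which was lower in Acacetin. The 20S count was 2 with the length trend removed and 1 with limma or without OGD 2 and OGD 3. Leaving out 1 library gave 3 to 11, 0 to 1 and 2 to 7. Acacetin against OGD kept 0 calls in the set under each alternative.

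Same-numbered libraries of different groups correlated at -0.29 to 0.51 with the group means removed (8 of 12 pairs over 0.1). Pairs of unlike number were not computed, so whether the numbers pair the libraries was not tested. With the numbers as a replicate block, Acacetin against Control gave 11 in the set, 1 in the 20S core and 8 in the 19S regulator, and OGD against Control 14, 1 and 9.

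The 20S minus 19S value kept its sign against Control; as a difference of medians over the genes it was -0.78 for OGD and -0.66 for Acacetin, and 0.12 for Acacetin minus OGD, which also changed sign without OGD 2 and OGD 3 (0.01). Over the called genes named under the rule, 284 of 360 values under alternatives kept the call in OGD against Control and 76 lost it; in Acacetin against Control 217 of 280 kept it and 63 lost it. 0 calls reversed. Low genes such as Psme4 are limited by depth.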
